A study of Mus musculus with 6 samples.

Results

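The ligands and receptors that maintain microglia, the resident macrophages of the brain, were followed across the cell types of the mouse forebrain. The set held 9 genes of the 32285 in the deposited matrix, taken by symbol: the receptor gene Csf1r with its ligands Csf1 and Il34, the receptor gene Cx3cr1 with its ligand Cx3cl1, and the transforming growth factor beta (TGF-β) genes Tgfb1, Tgfb2, Tgfbr1 and Tgfbr2. All 9 were found. Single-nucleus RNA sequencing (snRNA-seq), in which the transcripts of single nuclei are counted in droplets by unique molecular identifiers (UMIs), was performed on flash-frozen forebrain of 3 WT and 3 Npc1-/- mice, untreated and killed at postnatal day 16 (P16). Its question was which brain cell types are affected early when NPC1, a lysosomal cholesterol transporter, is lost, as it is in Niemann–Pick disease type C. The Npc1-/- mice carried the Npc1 nih allele in every cell and were F1 hybrids of heterozygous BALB/cJ and C57BL6/J parents, with WT littermates as the controls. Each mouse gave 1 library, and the matrix names its 6 libraries by a number only. No source used here ties those numbers to mice, so WT and Npc1-/- could not be compared, and each value below describes both genotypes together or 1 numbered library.

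CSF1R is a receptor tyrosine kinase on which the survival of microglia depends, and CSF1 and IL-34 are its only known ligands. CX3CR1 is the receptor for fractalkine (CX3CL1), which is made as a membrane-bound protein, chiefly by neurons in the brain, and is released by the proteases ADAM10 and ADAM17. TGF-β ligands are stored in a latent form, from which integrins free some of them. The ligands signal through a complex of the type 1 receptor TGFBR1 and the type 2 receptor TGFBR2, a signal that microglia need to hold their mature identity.

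The motif GAGGAA, the core bound by PU.1, the transcription factor that specifies the myeloid lineage, was looked for on both strands (as GAGGAA or TTCCTC) from 250 bases before to 50 bases after each RefSeq start on GRCm38.p6. Windows were read for 7 of the 9 genes, all but Csf1r and Il34, and are shown for the receptor genes Cx3cr1 and Tgfbr1, which were high in microglia-like nuclei, and for the ligand gene Cx3cl1, which was not, with the motif in capitals, 5′ to 3′ on the strand of the gene. The Cx3cr1 window lay at chr9:120068247-120068546 on the minus strand, the 2 Tgfbr1 starts at chr4:47352972-47353271 and chr4:47385966-47386265 on the plus strand, and the Cx3cl1 window at chr8:94771930-94772229 on the plus strand.
Cx3cr1: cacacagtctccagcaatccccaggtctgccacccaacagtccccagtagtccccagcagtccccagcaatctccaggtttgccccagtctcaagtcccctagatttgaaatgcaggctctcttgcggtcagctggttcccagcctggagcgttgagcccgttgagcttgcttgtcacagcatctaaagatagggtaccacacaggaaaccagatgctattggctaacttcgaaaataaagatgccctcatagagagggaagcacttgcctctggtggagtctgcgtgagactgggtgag
Tgfbr1 upstream start: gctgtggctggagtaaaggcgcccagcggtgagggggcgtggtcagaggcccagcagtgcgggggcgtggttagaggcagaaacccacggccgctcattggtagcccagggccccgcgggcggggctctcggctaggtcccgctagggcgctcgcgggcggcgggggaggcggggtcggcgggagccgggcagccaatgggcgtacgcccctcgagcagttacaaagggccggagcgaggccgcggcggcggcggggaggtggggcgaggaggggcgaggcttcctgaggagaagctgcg
Tgfbr1 downstream start: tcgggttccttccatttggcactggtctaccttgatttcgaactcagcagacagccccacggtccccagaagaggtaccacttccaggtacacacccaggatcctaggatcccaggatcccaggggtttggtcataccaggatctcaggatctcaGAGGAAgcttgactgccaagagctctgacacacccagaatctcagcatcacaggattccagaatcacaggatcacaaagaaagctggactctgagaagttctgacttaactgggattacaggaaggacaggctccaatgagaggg
Cx3cl1: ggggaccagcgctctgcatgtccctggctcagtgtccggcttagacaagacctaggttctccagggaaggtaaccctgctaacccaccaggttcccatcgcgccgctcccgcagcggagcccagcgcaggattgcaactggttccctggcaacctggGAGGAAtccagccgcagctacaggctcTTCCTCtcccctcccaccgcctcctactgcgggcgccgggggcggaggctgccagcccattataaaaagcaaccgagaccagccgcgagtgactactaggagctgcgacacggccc
The motif was present once at the downstream Tgfbr1 start, 2 times at Cx3cl1, and not in the windows of Cx3cr1 or the upstream Tgfbr1 start. Tgfb2 and Tgfbr2 also held it, so that 4 of 8 windows of these genes had the motif, against 28.3% of 32851 promoter windows of that length. Such matches describe letters only.

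The matrix held 75878 barcodes, of which 75867 with a mitochondrial share of UMIs under 10% were kept. The libraries had 51343653 to 107583300 UMIs, with a median of 4469 to 5439 per nucleus, and 631 barcode sequences occurred in more than 1 library. Nuclei were sorted into classes by marker genes, none of which was among the 9 genes: a nucleus entered a class when at least 3 of its 8 markers had a UMI and at least 2 times as many as of any other class. The rule was strict, and 19065 nuclei (25.1%) received a class. Of the 56802 that did not, 49622 had 3 or more markers of a class together with those of others, and between 69.9% (Tgfbr2) and 83.1% (Il34) of the UMIs of each of the 9 genes lay in them, where 79.1% of the UMIs of all genes lay. Library 4 was lowest, with 15.9% of its nuclei in a class against 20.9% to 33.1% in the others. Its smallest barcode had 2172 UMIs, against 415 to 1777 in the others, so it held no shallower nuclei. The microglia-like class had 1205 nuclei (77 in library 4 and 204 to 259 in the others), and was split from macrophage-like (63) and unsplit myeloid nuclei (187) by P2ry12, Tmem119 and 6 other markers; Siglech and Selplg were among its 10 genes of highest fold. Levels are given as CPM, the UMIs of a gene when all UMIs of a class are scaled to a sum of 1000000, with 95% intervals that cover counting error only, and as a log2 ratio of 1 class over all other classed nuclei. They are compared within a gene and not between genes. Where neighbours in the order of classes overlapped, classes farther apart in that order could still be separate. No test was made. A gene counted as raised in a class when its CPM was at least 2 times that of all other classed nuclei, pooled and in each of the 6 libraries, among 15179 genes with at least 200 UMIs.

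Over all barcodes the 9 genes were sparse. Csf1r had 7128 UMIs (14.3 CPM, 11.9 to 16.2 over the libraries) and Cx3cr1 had 10721 (21.5 CPM, 18.4 to 23.6). Tgfbr1 had 25839 UMIs (51.9 CPM, 44.8 to 61.6) and Tgfbr2 had 11862 (23.8 CPM, 17.2 to 28.4). All 4 receptor genes varied by less than 2-fold between whole libraries. Of the ligand genes, Cx3cl1 had 25823 UMIs (51.9 CPM, 46.7 to 56.0), Il34 had 15429 (31.0 CPM, 24.4 to 36.4) and Tgfb2 had 12799 (25.7 CPM, 19.1 to 29.3). Csf1 had 4205 UMIs (8.45 CPM, 6.88 to 9.83) and Tgfb1 had 3294 (6.62 CPM, 4.10 to 8.38), and Tgfb1, with a lowest library at 4.10 CPM, was the only one of the 9 to span more than 2-fold.

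**Figure D1:**
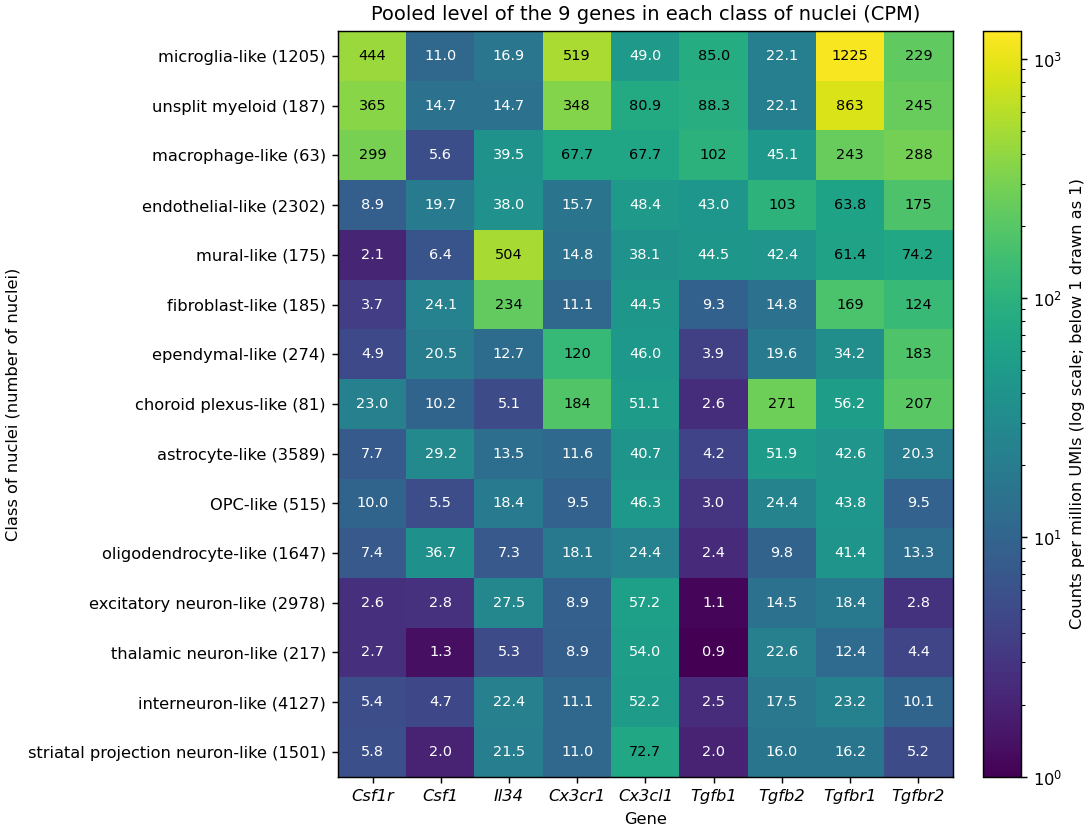
Level of the 9 genes (columns) in 15 classes of nuclei (rows), in CPM on a log colour scale, summed over the 6 libraries. Brighter colours are higher levels. Csf1r, Tgfbr1 and Tgfbr2 are brightest in the 3 myeloid rows and Cx3cr1 in the microglia-like and unsplit myeloid rows. Il34 is brightest in mural-like and fibroblast-like nuclei, and Cx3cl1 is nearly even. Colours are to be read down a column, not between columns.

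All 4 receptor genes, and Tgfb1 among the ligands, were highest in microglia-like nuclei of the 12 named classes with at least 100 nuclei. These 5 of the 9 genes were raised there, where 4.50% of all genes tested (683) were. None of the 5 lost this call when any 1 library was left out. The heat map of levels by class shows the contrast between these receptor genes and the ligand genes, of which Csf1, Il34, Cx3cl1 and Tgfb2 had their highest levels outside the microglia-like class.

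Csf1r stood at 443.7 CPM in microglia-like nuclei (1367 UMIs, 95% interval 420.5 to 467.9), with 301.1, 443.1 and 567.4 CPM in the lowest, median and highest library. All other classed nuclei together stood at 7.47 CPM, a log2 ratio of 5.89 (5.76 to 6.02). Each of the 11 other named classes of this size lay between 2.12 CPM (mural-like, 1 UMI) and 9.96 CPM (OPC-like, where OPC is the oligodendrocyte precursor cell), no library of theirs reached the microglia-like range, and no neighbours in that order were separated by their intervals. Macrophage-like nuclei, at 298.9 CPM (53 UMIs, 223.9 to 391), and unsplit myeloid nuclei, at 365.4 CPM, were the only others at this level. Microglia-like nuclei were above macrophage-like ones by 0.57 on the log2 scale (0.17 to 0.99), in 5 of the 6 libraries, and the library ranges of both overlapped.

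Cx3cr1, which binds fractalkine, parted the myeloid nuclei more widely. It stood at 519.0 CPM in microglia-like nuclei (1599 UMIs, 493.9 to 545.1), with libraries at a lowest of 334.9, a median of 521.6 and a highest of 662.7 CPM, and its log2 ratio over all other classed nuclei was 5.14 (5.04 to 5.24). Macrophage-like nuclei stood at 67.7 CPM (12 UMIs, 35.0 to 118.2) and had no UMI in 1 library. Between microglia-like and macrophage-like nuclei the difference was 2.94 on the log2 scale (2.13 to 3.89), with the former higher in each library, and unsplit myeloid nuclei lay between them at 348.2 CPM.

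Tgfbr1, the kinase that passes the TGF-β signal on, stood at 1225 CPM in microglia-like nuclei (3773 UMIs, 1186 to 1264), with libraries at 856, 1150 and 1726 CPM. The log2 ratio over all other classed nuclei was 5.17 (5.10 to 5.23). Macrophage-like nuclei stood at 242.5 CPM (43 UMIs, 175.5 to 326.7; libraries 82.5, 240.5 and 369.8), below every microglia-like library. Fibroblast-like nuclei followed at 168.7 CPM (91 UMIs; libraries 136.5, 162.6 and 223.1), with a log2 ratio of 1.29 that was above 1 when pooled but not in each library. Without library 6 they met the rule in each library. From endothelial-like nuclei (63.8 CPM) down to interneuron-like ones (23.2 CPM) neighbouring intervals overlapped, and the other neuron-like classes were lowest, between 12.4 CPM (thalamic) and 18.4 CPM (excitatory).

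Tgfbr2, the type 2 receptor, was shared more widely. In microglia-like nuclei it stood at 228.5 CPM (704 UMIs, 211.9 to 246.0), with libraries at 104.9, 234.7 and 308.8 CPM and a log2 ratio of 3.01 (2.89 to 3.13). Endothelial-like nuclei stood at 174.7 CPM (1555 UMIs; libraries 165.7, 173.6 and 228.4), ependymal-like nuclei at 182.8 CPM (187 UMIs; libraries 138.8, 198.6 and 219.9) and macrophage-like nuclei at 287.6 CPM (51 UMIs, 214.2 to 378.2). The 81 choroid plexus-like nuclei stood at 206.8 CPM (81 UMIs; libraries 63.5, 167.3 and 298.1). The library ranges of these classes overlapped. As log2 ratios, microglia-like over endothelial-like nuclei gave 0.39 (0.26 to 0.52), with 5 of the 6 libraries in this direction, ependymal-like over endothelial-like 0.07 (−0.16 to 0.29), and microglia-like over macrophage-like −0.33 (−0.74 to 0.11). Fibroblast-like nuclei stood at 124.2 CPM and mural-like at 74.2 CPM, and neither met the rule in each library; 1 mural-like library had no Tgfbr2 UMI, and without library 3 the fibroblast-like class met it. Excitatory neuron-like nuclei were lowest at 2.84 CPM. The first place depended on the gate: when nuclei were assigned by standardised marker scores, endothelial-like nuclei (160.9 CPM) stood above microglia-like ones (136.2 CPM).

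Within the microglia-like class the 5 raised genes were all lowest in CPM in the same library. Library 4, with 77 nuclei, had the lowest level of each: 301.1 CPM of Csf1r, 334.9 of Cx3cr1, 33.8 of Tgfb1, 856.0 of Tgfbr1 and 104.9 of Tgfbr2. It also had the lowest summed level of 10 myeloid reference genes (C1qa, Trem2, Tyrobp and others), 947 CPM against 1134 to 1738 in the other libraries, and the highest of 8 neuronal genes (Camk2a, Snap25 and others), 10356 CPM against 5037 to 7937. Library 4 also held no barcode under 2172 UMIs, near the median of 2161 UMIs of microglia-like nuclei. The parts of neuronal RNA and of this depth limit in the lower levels were not tested. When the levels were given per 100 UMIs of the myeloid reference genes, the ratio of the highest to the lowest library fell from 1.88 to 1.42 for Csf1r, from 1.98 to 1.28 for Cx3cr1 and from 2.02 to 1.46 for Tgfbr1. For Tgfb1 it fell from 3.01 to 2.17, and for Tgfbr2 from 2.94 to 1.85. Library 4 had 10 Tgfb1 UMIs and 31 Tgfbr2 UMIs, and without it the ratios in CPM were 1.32 for Tgfb1 and 1.79 for Tgfbr2, against 1.41 for Csf1r, 1.56 for Cx3cr1 and 1.88 for Tgfbr1. Per 100 myeloid reference UMIs, library 4 was lowest for Cx3cr1, Tgfb1 and Tgfbr2, but the lowest for Csf1r was library 6 (27.3, against 31.8 in library 4) and for Tgfbr1 library 3 (80.9, against 90.4).

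**Figure D2:**
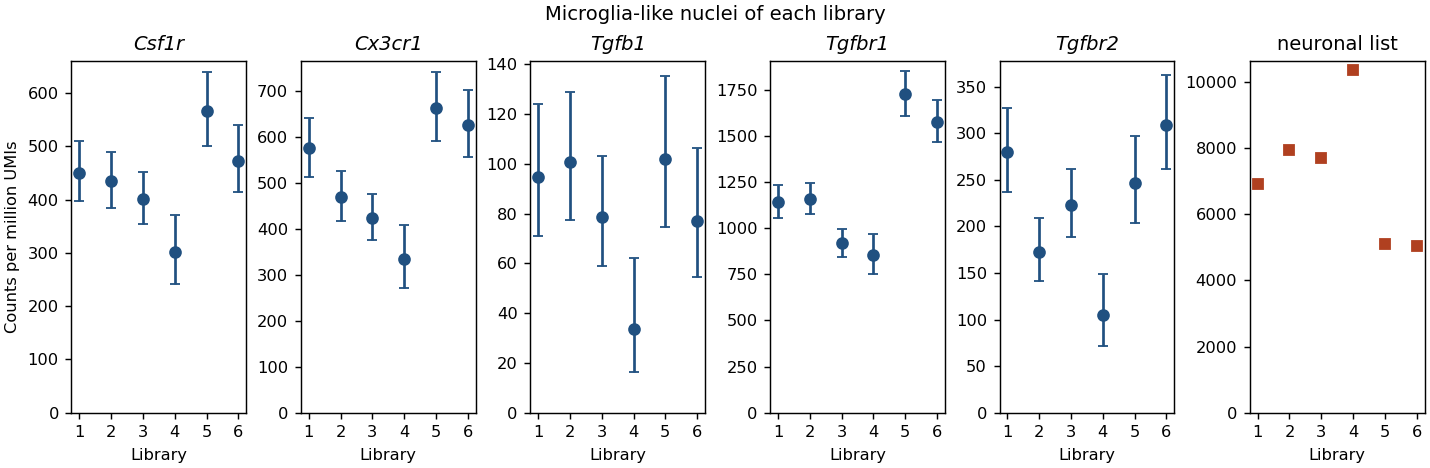
Level of Csf1r, Cx3cr1, Tgfb1, Tgfbr1 and Tgfbr2 and the summed level of 8 neuronal genes in microglia-like nuclei of each of the 6 libraries, in CPM. Bars are 95% counting intervals and are drawn for the 5 genes only. Library 4 is lowest for each of the 5 genes and highest for the neuronal genes; the libraries carry no genotype.

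Most microglia-like nuclei carried UMIs of several of the receptor genes, although these nuclei were shallow. A Csf1r UMI was found in 63.7% of the 1205 microglia-like nuclei (60.9% to 66.5%, counting error only), and in 56.4% to 70.3% over single libraries. A Cx3cr1 UMI was found in 66.3% (libraries 58.7% to 70.1%). The shares were 87.5% for Tgfbr1 (libraries 81.8% to 93.1%) and 40.4% for Tgfbr2 (libraries 32.5% to 47.8%), at a median of 2161 UMIs per nucleus. Of the 4 receptor genes, 4 had a UMI in 217 nuclei (18.0%), 3 in 453 (37.6%), 2 in 365 (30.3%), 1 in 151 (12.5%) and none in 19 (1.58%). Excitatory neuron-like nuclei, taken for comparison and with a median of 8745 UMIs, showed a Csf1r UMI in 2.48%, Cx3cr1 in 8.16%, Tgfbr1 in 11.7% and Tgfbr2 in 2.69%. With each nucleus thinned to 1500 UMIs, which left out 183 microglia-like and 16 excitatory neuron-like nuclei as too shallow, the shares were 49.4% against 0.439% for Csf1r, 55.5% against 1.38% for Cx3cr1, 76.2% against 2.40% for Tgfbr1 and 30.4% against 0.473% for Tgfbr2. At the ratios to the myeloid reference genes found in microglia-like nuclei, the levels in excitatory neuron-like nuclei were 0.461 times the level set by those genes for Csf1r, 1.33 times for Cx3cr1, 1.16 times for Tgfbr1 and 0.964 times for Tgfbr2; which of their UMIs came from neurons was not tested.

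The ligands of CSF1R were highest in different classes. Csf1 was raised in oligodendrocyte-like nuclei, where 4.51% of all genes were, and in astrocyte-like nuclei, where 6.15% were. It stood at 36.7 CPM in oligodendrocyte-like nuclei (321 UMIs, 32.8 to 41.0; libraries 33.6, 37.7 and 42.9), a log2 ratio of 1.98 (1.80 to 2.17), and at 29.2 CPM in astrocyte-like nuclei (402 UMIs, 26.4 to 32.2; libraries 26.9, 29.3 and 31.8), a log2 ratio of 1.72 (1.54 to 1.89). Oligodendrocyte-like nuclei were unevenly spread, with 500, 502 and 426 in libraries 1, 2 and 5 and 85, 52 and 82 in libraries 3, 4 and 6. Pooled values of this class rest mainly on libraries 1, 2 and 5. The paper reports that Npc1-/- forebrains had fewer immature and mature oligodendrocyte nuclei than WT. Whether the pooled values of this class weigh 1 genotype more could not be told, since the libraries carry no genotype. No astrocyte-like library reached the lowest oligodendrocyte-like one, although the log2 ratio between both classes was small, at 0.33 (0.11 to 0.54). OPC-like nuclei, the precursors of oligodendrocytes, stood at 5.48 CPM (11 UMIs), lower than oligodendrocyte-like nuclei in each library, with a log2 ratio of the latter to the former of 2.74 (1.89 to 3.76). Fibroblast-like (24.1 CPM), ependymal-like (20.5 CPM) and endothelial-like nuclei (19.7 CPM; libraries 16.1, 20.02 and 27.5) had overlapping intervals. Microglia-like nuclei stood at 11.04 CPM (34 UMIs; libraries 1.79, 8.18 and 23.0), and the 4 neuron-like classes lay between 1.33 and 4.73 CPM.

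Il34, the other ligand, was raised in mural-like nuclei, which wrap the blood vessels, and in fibroblast-like nuclei, where 2.00% and 2.08% of all genes were. Mural-like nuclei stood at 504.3 CPM (238 UMIs in 175 nuclei, 442.2 to 572.6; libraries 357.3, 543.9 and 814.2), a log2 ratio of 4.46 (4.26 to 4.65). Fibroblast-like nuclei stood at 233.6 CPM (126 UMIs in 185 nuclei, 194.6 to 278.2; libraries 161.3, 229.8 and 347.4), a log2 ratio of 3.28 (3.01 to 3.54). Every mural-like library lay above every fibroblast-like one, with a log2 ratio of 1.11 (0.79 to 1.43). Endothelial-like nuclei followed at 38.0 CPM (338 UMIs), with a log2 ratio over all other classed nuclei of 0.66 (0.49 to 0.83) that was above 0 in all 6 libraries. An Il34 UMI was found in 58.3% of mural-like and 33.5% of fibroblast-like nuclei (45.8% and 22.4% when thinned to 1500 UMIs).

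Among neurons, the source for which Il34 is best known in the brain, levels were lower and uneven. Excitatory neuron-like nuclei stood at 27.5 CPM (813 UMIs; libraries 23.6, 28.2 and 35.0), interneuron-like nuclei at 22.4 CPM, striatal projection neuron-like nuclei at 21.5 CPM and thalamic neuron-like nuclei at 5.31 CPM (12 UMIs, none in 3 libraries). Excitatory neuron-like nuclei were higher than thalamic ones by 2.37 on the log2 scale (1.56 to 3.33) and than interneuron-like ones by 0.29 (0.13 to 0.46), both in each library. From interneuron-like down to ependymal-like nuclei (12.7 CPM) no neighbouring classes were separated by their intervals. Oligodendrocyte-like nuclei were also low, at 7.32 CPM (64 UMIs), as were the 81 choroid plexus-like nuclei, at 5.11 CPM (2 UMIs). Excitatory neuron-like nuclei held 31.1% of the Il34 UMIs of all classed nuclei, with 28.5% of their UMIs of all genes, and interneuron-like nuclei 19.2%, with 21.6%. Endothelial-like nuclei held 12.9%, with 8.57%. Mural-like nuclei held 9.11%, with 0.455% of the UMIs of all genes and 0.918% of classed nuclei.

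**Figure D3:**
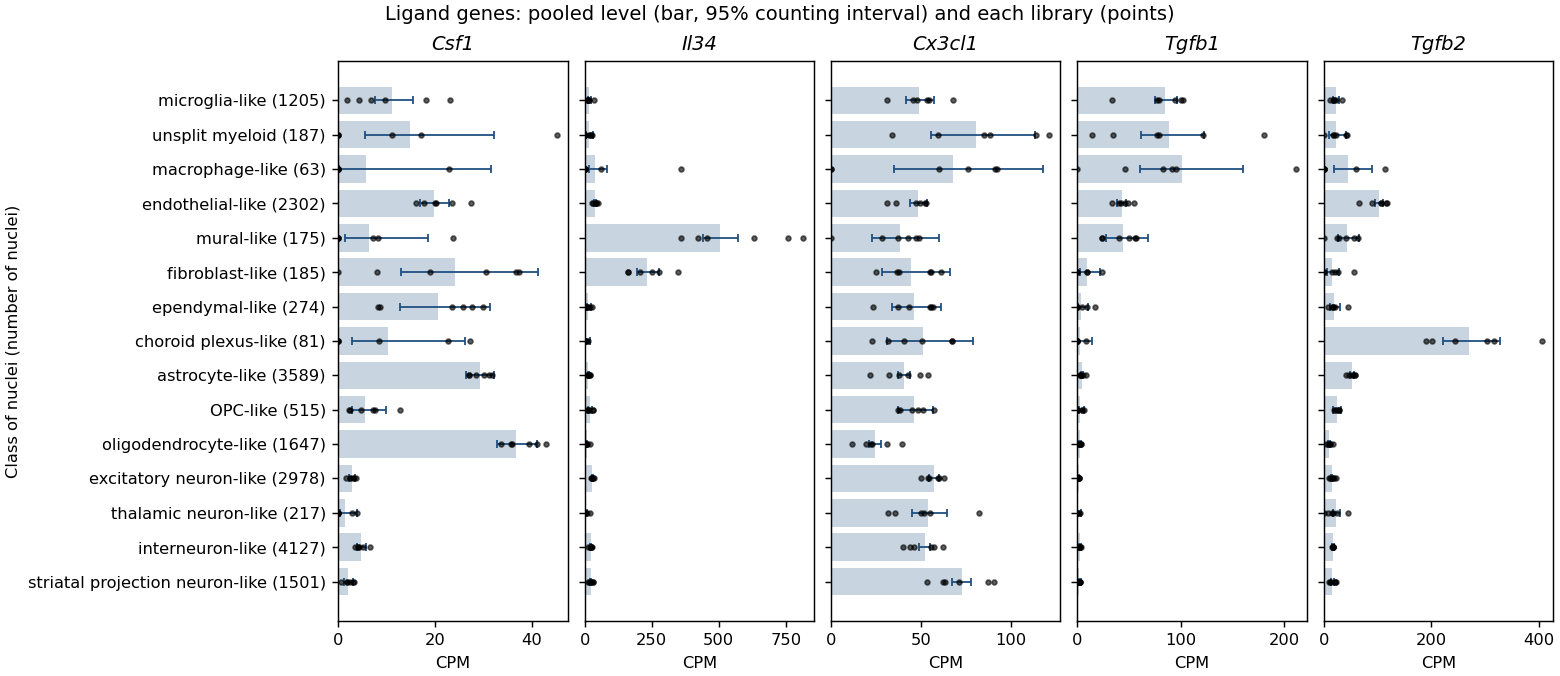
Level of the 5 ligand genes by class, in CPM on an axis from 0; bars are sums over the 6 libraries with 95% counting intervals and points are single libraries. Csf1 is highest in oligodendrocyte-like and astrocyte-like nuclei, Il34 in mural-like, Cx3cl1 in no class by 2-fold, Tgfb1 in myeloid and vascular nuclei and Tgfb2 in choroid plexus-like and endothelial-like nuclei.

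Cx3cl1 was the most even of the 9 genes and was raised in no class. The rule set each neuron-like class against nuclei that included the other neurons. Excitatory neuron-like nuclei held 28.5% of the UMIs of all classed nuclei and interneuron-like nuclei 21.6%. A gene shared evenly by all neurons could therefore hardly be raised in 1 of their classes. Of the 12 named classes with at least 100 nuclei, Cx3cl1 was highest in striatal projection neuron-like nuclei, where 2.17% of all genes were raised. It stood there at 72.7 CPM (725 UMIs; libraries 53.2, 67.3 and 91.0), a log2 ratio of 0.57 over all other classed nuclei. Excitatory neuron-like nuclei followed at 57.2 CPM (1693 UMIs; libraries 50.1, 57.2 and 62.8), thalamic ones at 54.0 CPM and interneuron-like ones at 52.2 CPM. The ranges of the striatal and excitatory libraries overlapped, and the log2 ratio between them was 0.34 (0.22 to 0.47), with 5 of 6 libraries in this direction. Between excitatory neuron-like and mural-like nuclei (38.1 CPM) no neighbouring classes were separated by their intervals. Oligodendrocyte-like nuclei were lowest at 24.4 CPM (213 UMIs; libraries 11.9, 22.6 and 39.3), lower than astrocyte-like nuclei (40.7 CPM), with a log2 ratio of −0.74 (−0.98 to −0.51), and lower than striatal projection neuron-like nuclei in 6 of 6 libraries.

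Microglia-like nuclei themselves stood at 49.0 CPM of Cx3cl1 (151 UMIs; libraries 31.3, 50.7 and 67.7), 85.7% of the level in excitatory neuron-like nuclei. The 8 neuronal reference genes stood in microglia-like nuclei at 7057 CPM, 44.4% of their level in excitatory neuron-like nuclei (15909 CPM), and in oligodendrocyte-like nuclei at 3546 CPM. The part of neuronal RNA in the Cx3cl1 counts of other classes was not tested. The share of nuclei with a UMI depended on depth: a Cx3cl1 UMI was found in 39.9% of excitatory neuron-like and 11.5% of microglia-like nuclei, and in 9.12% and 7.24% when each nucleus was thinned to 1500 UMIs. The smaller myeloid classes stood at 80.9 CPM (unsplit, 33 UMIs) and 67.7 CPM (macrophage-like, 12 UMIs).

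The receptor gene Cx3cr1 was also raised in ependymal-like nuclei, the ciliated cells that line the ventricles, where 5.42% of all genes were. It stood there at 120.3 CPM (123 UMIs, 99.95 to 143.5; libraries 95.5, 117.6 and 140.5), a log2 ratio of 2.06 (1.79 to 2.32), and in the 81 choroid plexus-like nuclei at 183.8 CPM (72 UMIs, 143.8 to 231.5; libraries 89.1, 195.9 and 315.4). All ependymal-like libraries lay below all microglia-like ones and above astrocyte-like nuclei (11.6 CPM), with a log2 ratio over the latter of 3.37 (3.02 to 3.72). Below ependymal-like nuclei, between 8.85 and 18.1 CPM, no neighbouring classes were separated by their intervals. Csf1r did not share this: it stood at 4.89 CPM in ependymal-like nuclei and 23.0 CPM (9 UMIs) in choroid plexus-like nuclei.

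Myeloid RNA in these nuclei was measured by the 10 myeloid reference genes, which stood at 57.7 CPM in ependymal-like and 35.7 CPM in choroid plexus-like nuclei against 1335 CPM in microglia-like nuclei and 17.2 to 64.8 CPM in the other non-myeloid classes with at least 100 nuclei. At the ratio of Cx3cr1 to these genes found in microglia-like nuclei, the observed Cx3cr1 level was 5.36 times that ratio in ependymal-like and 13.2 times in choroid plexus-like nuclei, while Csf1r stood at 0.25 and 1.93 times its own. The plot of receptor genes against the myeloid genes shows Cx3cr1 and Tgfbr2 above the line in these classes. Gene models of Cx3cr1 differ in length. In the GENCODE annotation of GRCm38, Cx3cr1 (ENSMUSG00000052336) spans chr9:119901616-120069879 on the minus strand, 168264 bases, against 19614 bases in RefSeq (chr9:120048683-120068296). The longer span covers Gorasp1, Csrnp1 and Xirp1 on the same strand, and Ttc21a and part of Wdr48 on the opposite strand. Ttc21a, a gene of cilia, stood at 461.5 CPM in ependymal-like nuclei (251.6 to 718.0 over libraries), 63.8 CPM in choroid plexus-like and 0.974 CPM in microglia-like nuclei, whereas Gorasp1 (3.91 CPM), Csrnp1 (2.93 CPM) and Xirp1 (0 CPM) were low in ependymal-like nuclei. The part of overlapping genes in the Cx3cr1 counts was not tested, and no source used here gives the annotation release behind the matrix.

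**Figure D4:**
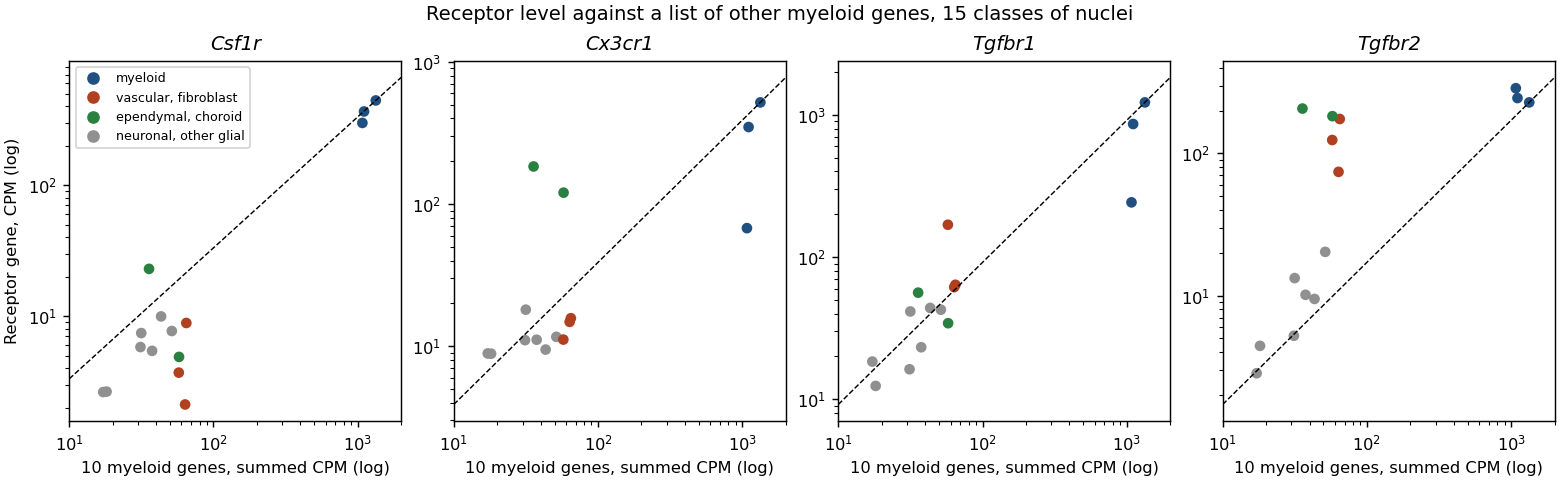
Level of Csf1r, Cx3cr1, Tgfbr1 and Tgfbr2 (y axis) against the summed level of 10 myeloid reference genes (x axis) in 15 classes, both in CPM on log axes; the dashed line is the ratio in microglia-like nuclei. Csf1r lies on or below the line in all classes but choroid plexus-like nuclei, while Cx3cr1 lies farthest above it in choroid plexus-like and ependymal-like nuclei (13.2 and 5.36 times) and up to 1.47 times above it elsewhere. Tgfbr2 lies 6.81 to 33.8 times above it in endothelial-like, mural-like, fibroblast-like, ependymal-like and choroid plexus-like nuclei and up to 2.45 times above it in the other classes drawn.

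The ligands of the TGF-β receptors divided between classes. Tgfb1 stood at 85.0 CPM in microglia-like nuclei (262 UMIs, 75.1 to 96.0; libraries 33.8, 86.8 and 101.8), a log2 ratio of 3.69 (3.48 to 3.90), and at 101.5 CPM (18 UMIs) in macrophage-like nuclei. It was also raised in endothelial-like nuclei, where 7.92% of all genes were, at 43.0 CPM (383 UMIs; libraries 33.6, 44.2 and 54.7), and in mural-like nuclei at 44.5 CPM (21 UMIs; libraries 23.7, 45.3 and 56.5). Microglia-like nuclei were higher than endothelial-like ones in each library, by 0.98 on the log2 scale (0.75 to 1.21), while mural-like and endothelial-like intervals overlapped. Summed over libraries, endothelial-like nuclei held 41.4% of the classed Tgfb1 UMIs, with 8.57% of the UMIs of all genes, and microglia-like nuclei 28.3%, with 2.97%; the former had more Tgfb1 UMIs in 4 of 6 libraries and fewer in libraries 5 and 6. Neuron-like classes lay between 0.885 and 2.50 CPM.

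Tgfb2 was low in microglia-like nuclei, at 22.1 CPM (68 UMIs; libraries 12.5, 19.3 and 34.8), and raised in endothelial-like nuclei, at 102.6 CPM (913 UMIs, 96.0 to 109.4; libraries 65.1, 106.7 and 117.0) with a log2 ratio of 2.19 (2.08 to 2.31). Astrocyte-like nuclei stood at 51.9 CPM (714 UMIs; libraries 40.5, 53.0 and 58.9), 2.01-fold over all other classed nuclei when pooled but not in each library. Every endothelial-like library was above every astrocyte-like one, and from astrocyte-like down to excitatory neuron-like nuclei (14.5 CPM) no neighbouring classes were separated by their intervals. The 2 ends of that order were apart, with log2 ratios over all other classed nuclei of 1.01 (0.88 to 1.13) and −1.28 (−1.43 to −1.13). Choroid plexus-like nuclei stood highest at 270.6 CPM (106 UMIs in 81 nuclei, 221.6 to 327.3; libraries 190.8, 273.5 and 405.5), a log2 ratio over endothelial-like nuclei of 1.40 (1.10 to 1.69). In the oligodendrocyte lineage, Tgfb2 was at 24.4 CPM in OPC-like and 9.83 CPM in oligodendrocyte-like nuclei (log2 ratio −1.31, −1.83 to −0.77, lower in 6 of 6 libraries), the opposite order to Csf1.

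Endothelial-like nuclei thus had 3 raised genes of the 9, Tgfb1, Tgfb2 and Tgfbr2 (7.92% of all genes were raised there). Summed over libraries, they held 43.6% of the classed Tgfbr2 UMIs, with 8.57% of the UMIs of all genes. Microglia-like nuclei held 19.7%, with 2.97%. The former had more Tgfbr2 UMIs in 5 of 6 libraries and fewer in library 6 (117 and 148). Ependymal-like nuclei had 2 raised genes, Cx3cr1 and Tgfbr2 (5.42% of all genes), and mural-like nuclei had 2, Il34 and Tgfb1 (2.00%). The excitatory, thalamic, interneuron-like, striatal projection neuron-like and OPC-like classes had none, with 1.24%, 1.62%, 1.28%, 2.17% and 1.05% of all genes raised. For the neuron-like classes the comparison included the other neurons, so a gene shared by all neurons could hardly be raised.

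Other genes of the same systems were taken as 3 lists of 26 genes, of which 21 had enough UMIs. In microglia-like nuclei 4 of the 21 were raised, against 4.50% of all genes: Spi1 (118.8 CPM), which encodes PU.1, Irf8 (116.8 CPM) and Runx1 (501.8 CPM), transcription factors of the myeloid lineage, and Nrros (118.1 CPM), which holds latent TGF-β1 on myeloid cells and stood at 197.4 CPM in macrophage-like nuclei. In endothelial-like nuclei 6 were raised, against 7.92% of all genes: the proteases Adam10 (310.4 CPM) and Adam17 (91.8 CPM), the TGF-β co-receptors Tgfbr3 (96.1 CPM) and Eng (495.8 CPM), the type 1 receptor Acvrl1 (110.9 CPM) and the latent TGF-β binding protein Ltbp4 (199.8 CPM). Adam10, which releases CX3CL1, stood at 222.7 CPM in microglia-like and 79.4 CPM in excitatory neuron-like nuclei, so the protease and the ligand genes had different orders. Astrocyte-like nuclei had 4, against 6.15% of all genes, the integrin genes Itgav (168.3 CPM) and Itgb8 (106.2 CPM), which free TGF-β, Ltbp1 (65.9 CPM), and Ptprz1 (1481 CPM), a receptor that IL-34 can bind. OPC-like nuclei had 2, Ptprz1 (1350 CPM) and Ltbp1 (77.7 CPM), against 1.05% of all genes. Oligodendrocyte-like nuclei had 1, Smad7 (475.6 CPM, and 40.3 CPM in OPC-like nuclei), an inhibitor of TGF-β signalling, against 4.51%, and fibroblast-like nuclei had 1, Tgfbr3 (563.7 CPM), against 2.08%. Mural-like, ependymal-like and the 4 neuron-like classes had none, with the same limit of the rule for genes shared by all neurons.

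Genes most like each of the 9 were named by the Pearson correlation of log2(CPM + 1) over 13 classes, the 12 named ones and unsplit myeloid nuclei. The marker genes of the classes and the reference genes were left out, so nearest means nearest among the other genes. Classes share libraries and may share free RNA, which was not measured, and the values are descriptions. Csf1r was nearest to Cd300c2 and Pld4 (both r = 0.992) and Vav1 (0.990), and Cx3cr1 to Rubcnl (0.977), Gm26542 (0.9625) and Bank1 (0.960). Tgfbr1 was nearest to Elf4 (0.976), Gm26740 (0.975) and Gdi2 (0.973), and Tgfbr2 to AU020206 (0.981), Irgm2 (0.976) and Ube2d3 (0.964). Tgfb1 was nearest to 9930111J21Rik2 (0.987), Serinc3 (0.977) and Sipa1 (0.974), and Csf1 to Tsc22d3 (0.951), Inppl1 and Plaat3 (0.949). For Il34 they were Tnxb (0.953), Fap (0.945) and Sept11 (0.936), for Tgfb2 Myo10 (0.902), Eogt (0.893) and Stt3b (0.891), and for Cx3cl1, with the weakest likeness, Inha (0.873), Rps6ka3 and Jph3 (both 0.869). Between receptor genes r ran from 0.546 (Csf1r with Tgfbr2) to 0.875 (Csf1r with Tgfbr1). Between receptors and their ligands it was 0.852 for Tgfb1 with Tgfbr1 and 0.845 with Tgfbr2, 0.072 for Tgfb2 with Tgfbr1 and 0.353 with Tgfbr2, 0.234 for Csf1r with Csf1, −0.265 for Csf1r with Il34, and 0.245 for Cx3cr1 with Cx3cl1.

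Levels in microglia-like nuclei moved in both directions under other gates. Under the gate that allowed 1 marker of any other class, which left 280 microglia-like nuclei, Csf1r, Cx3cr1, Tgfb1, Tgfbr1 and Tgfbr2 stood higher, at 533.0, 717.0, 107.9, 1510 and 268.6 CPM. With only markers seen in under 25% of nuclei they stood lower, at 267.5, 299.9, 49.0, 699.6 and 133.9 CPM, and with standardised scores at 263.2, 291.8, 50.7, 692.8 and 136.2 CPM. Under the latter gates Il34 in mural-like nuclei stood at 372.6 and 239.8 CPM, the highest class of at least 100 nuclei in both. Cx3cr1 in ependymal-like nuclei stood at 82.9 and 47.3 CPM, and in choroid plexus-like nuclei at 179.0 and 58.8 CPM. Those 2 gates were chosen after seeing the data. Tgfb1 in endothelial-like nuclei stood at 19.1 CPM under the gate that allowed 1 marker of any other class. With the rarer markers it stood at 33.9 CPM and with standardised scores at 40.8 CPM. It was below microglia-like nuclei each time, but by a distance that depended on the gate.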

How the data were processed

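snRNA-seq libraries from 6 forebrains (3 WT, 3 Npc1-/-) were analysed as the UMI counts the authors deposited. Per the file headers, they are whole numbers for each gene in each barcode, written by Cell Ranger 6.0.0 for 6 joined libraries, with no normalization. The submitters' processing notes name Cell Ranger 2.1.1 and mm10, and the authors describe STARsolo alignment to GRCm38, removal of empty droplets and multiplets, and imputation, and no source used here says how the matrix relates to that analysis. No key from library number to mouse was used, and no genotype comparison was made.

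Counts were analysed with Python 3.11.15, numpy 2.4.6, scipy 1.17.1 and pandas 2.3.3, and figures were drawn with matplotlib 3.10.9. Nuclei with a mitochondrial share of 10% or more were removed. No doublet caller was run, and nuclei with mixed markers stayed without a class. Classes came from 14 lists of 8 markers (at least 3 detected and 2 times any other list). Myeloid nuclei were split by 2 further lists, with at least 2 markers and 2 times the other list. UMIs were summed per class and library and scaled to CPM. Level intervals are exact Poisson, ratio intervals exact binomial and share intervals Clopper-Pearson, at 95%, and they cover counting error only. All 9 genes were named, with the 3 most alike genes for each and genes of the 3 lists raised in a class or partnering a member. The most alike genes (pseudocount 1, at least 200 UMIs) were taken from outside all marker and reference lists. The members and lists were chosen with earlier results of these data known. Library depths limit precision to the intervals given. Scripts were tested on simulated data. The alternatives were gates of at least 2 or 4 markers, a gate allowing 1 marker of another class, removal of the deepest 10% of nuclei, means over nuclei, medians over libraries, no mitochondrial filter, each library left out and, added after seeing the data, rarer markers and standardised scores.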

Additional observations from a re-analysis of the deposited data

Results flagged for a closer look

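Most UMIs of each of the 9 genes lay in nuclei without a class, which no class comparison used and which held 79.1% of the UMIs of all genes. Each count was above the 3 UMIs that a count of 0 allows, a floor that counts of this size pass in any case. The share was above that of all genes for Il34 (83.1%), near it for Cx3cl1 (79.4%) and below it for the other genes (69.9% to 76.2%). Csf1r had 5008 UMIs there (12.7 CPM), Csf1 3000 (7.62 CPM) and Il34 12816 (32.5 CPM). Cx3cr1 had 7639 UMIs (19.4 CPM) and Cx3cl1 20510 (52.1 CPM). Tgfb1 had 2368 UMIs (6.01 CPM), Tgfb2 9758 (24.8 CPM), Tgfbr1 18631 (47.3 CPM) and Tgfbr2 8294 (21.1 CPM). These levels describe a mixture of cell types, and which types carried the UMIs was not tested.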

How the results depend on the processing

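None of the 9 log2 ratios of the highest class over all other classed nuclei changed sign. The order of Tgfbr2 in microglia-like and endothelial-like nuclei did turn with standardised scores (136.2 and 160.9 CPM). Over these 9 log2 ratios and the number of genes raised in microglia-like nuclei (683), 101 alternative values stayed within the counting interval (or within 1.5 times the number) and 44 did not. Gates of at least 2 or 4 markers, medians over libraries and no mitochondrial filter moved none, and Cx3cl1 (0.57) moved under no alternative. Unless stated, the cause of a shift was not tested. Under the gate allowing 1 marker of another class, which kept 2518 nuclei, the log2 ratios were 5.27 for Csf1r, 2.42 for Csf1, 4.91 for Il34 (22 mural-like nuclei), 5.27 for Cx3cr1, 4.23 for Tgfb1, 1.68 for Tgfb2 and 3.45 for Tgfbr2, and no number of raised genes was had because 1 library had no microglia-like nucleus. Without the deepest 10% of nuclei they were 5.72 for Csf1r, 1.77 for Csf1 and 2.82 for Tgfbr2. With the rarer markers, chosen after seeing the data, they were 4.97 for Csf1r, 1.11 for Csf1, 4.06 for Il34, 4.23 for Cx3cr1, 2.67 for Tgfb1, 1.59 for Tgfb2, 4.06 for Tgfbr1 and 2.02 for Tgfbr2. With standardised scores, also chosen after seeing the data, they were 5.01, 1.56, 3.05, 4.27, 2.88, 1.84, 4.18 and 2.26 for the same genes in that order. As means over nuclei they were 5.23 for Csf1r, 1.52 for Csf1, 4.76 for Cx3cr1, 3.21 for Tgfb1, 1.91 for Tgfb2, 4.85 for Tgfbr1 and 2.59 for Tgfbr2. With each library left out in turn, Csf1r ranged from 5.75 to 5.99, Cx3cr1 from 5.01 to 5.24, Tgfb2 from 2.12 to 2.31, Tgfbr1 from 5.07 to 5.27 and Tgfbr2 from 2.86 to 3.15. No paired analysis was possible because WT and Npc1-/- could not be assigned to libraries. Tests between classes paired within libraries were not run. Small counts limit some levels: the 63 macrophage-like nuclei gave 12 to 53 UMIs per receptor gene, and mural-like nuclei 1 UMI of Csf1r.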
